A study of Mus musculus with 12 samples.

Results

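The 10 genes described here encode the NF-kB transcription factors and the proteins that hold or steer them: the subunits Nfkb1, Nfkb2, Rel, Rela and Relb, the cytoplasmic inhibitors Nfkbia, Nfkbib and Nfkbie, and the nuclear IkB proteins Nfkbiz and Bcl3. They were taken by name, not by their values, from 55401 gene IDs measured, and all 10 passed the filter on low values in every comparison. NF-kB dimers wait in the cytoplasm bound to IkB proteins. Signals from pathogens, damage or cytokines activate the IkB kinase (IKK), which marks the inhibitor for destruction and releases the dimer to the nucleus. Several subunit and inhibitor genes are themselves NF-kB targets, so in macrophages and monocytes the system resets and extends itself as inflammation proceeds. RelB with the p52 product of Nfkb2 forms a slower alternative pathway run by the kinase NIK, encoded by Map3k14. mRNA was counted here, and neither protein, processing of precursors nor nuclear entry was measured.

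Myeloid cells that were CD45+/CD11b+/Ly6G- came by flow sorting from hind paws of mice, taken 4 h after the paw received saline or 1% carrageenan, a seaweed polysaccharide that provokes acute inflammation. The mice were FABP5Flox (called Flox) or FABP5Flox with LysM-Cre (called cKO), where Cre is expressed from the myeloid lysozyme gene Lyz2 and targets Fabp5, a lipid carrier. All groups thus carried the floxed gene, no group had Cre alone, and Cre, its Lyz2 allele and the targeting of Fabp5 cannot be told apart. The 4 groups (Flox saline, Flox carrageenan, cKO saline, cKO carrageenan) held 3 libraries each (n = 3), every one a pool of 3 or 4 adult mice, named by the mouse numbers 1-3, 4-7 and 8-10 in Flox and 1-4, 5-8 and 9-12 in cKO.

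Libraries held 111925 to 2987015 reads on genes, and the cKO libraries 4.99 times as many as the Flox libraries (geometric means), so depth and genotype cannot be told apart. The shallowest library, Flox saline 1-3, held 14 to 256 reads of a member, where 1 read stood for 5.68 normalized counts. Of the genes of the sort markers, Ptprc, which encodes CD45, had 8558 reads over all libraries, Itgam (CD11b) 6232 and Ly6g 4. Genes of other cell types were read too. In cKO saline, 5 keratinocyte markers had 8280 reads together and 8 fibroblast markers 3455, against 3347 of Ptprc. Fabp5 had 1 to 21 reads in Flox saline libraries and 16 to 19 in the deeper cKO saline libraries. In normalized counts it was at 5.68, 36.0 and 23.2 in Flox saline and 6.26, 4.17 and 11.5 in cKO saline. These groups overlapped only through Flox saline 1-3, where Fabp5 had 1 read. In carrageenan its level was 35.0 to 101 in Flox and 6.30 to 23.7 in cKO, without overlap. The sources do not say whether the 3' end that was read lies in the deleted part.

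The genes lie on several chromosomes (GRCm38): Nfkb1 at chr3:135584655-135691547, Nfkb2 at chr19:46304320-46312385, Rela at chr19:5637483-5648130, Rel at chr11:23736847-23770970 and Relb at chr7:19606217-19629438. Nfkbia lies at chr12:55489410-55492647, Nfkbib at chr7:28758251-28767512, Nfkbie at chr17:45555703-45563169, Nfkbiz at chr16:55811375-55838899 and Bcl3 at chr7:19808462-19822770. Nfkbib overlaps Sirt2 and Ccer2 on the other strand. Those genes had 1099 reads together against 2721 of Nfkbib, and whether counting used strand is not given in the sources used here, so Nfkbib values are uncertain. Nfkb1, Nfkb2 and Bcl3 also overlap other annotated genes, which held 200, 137 and 9 reads against 7576, 3409 and 4277 of the member.

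The stretches just before the starts of 4 genes are shown because they hold the kappaB consensus, the sequence that NF-kB dimers bind. The RefSeq promoter table (GRCm38.p6) matched 7 of the 10 genes, all but Nfkb1, Relb and Nfkbiz. The consensus of 10 bases was searched on both strands of the 250 bases before each start. It was found for Nfkb2, Rel, Nfkbia and Nfkbie, and its letters were not in the windows of Rela, Nfkbib and Bcl3; 8.23% of 27025 genes and 7.25% of 32851 windows hold it. The following sequences run 5′ to 3′ along the gene's strand, with matches in capitals; in Rel and Nfkb2 overlapping matches on both strands merge into 1 run. The Rel stretch is chr11:23770970-23771219 (minus strand), that of Nfkbia chr12:55492648-55492897 (minus), that of Nfkbie chr17:45555450-45555699 (plus), and the 30 bases of Nfkb2 are chr19:46304688-46304717 (plus), inside an annotated first exon of another transcript.
Nfkb2: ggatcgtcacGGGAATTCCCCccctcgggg
Rel: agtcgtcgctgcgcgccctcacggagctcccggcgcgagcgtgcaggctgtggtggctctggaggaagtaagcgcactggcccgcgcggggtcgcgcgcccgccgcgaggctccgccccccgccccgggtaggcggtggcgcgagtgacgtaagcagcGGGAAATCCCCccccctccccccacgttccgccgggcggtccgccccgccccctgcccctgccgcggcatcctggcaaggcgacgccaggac
Nfkbia: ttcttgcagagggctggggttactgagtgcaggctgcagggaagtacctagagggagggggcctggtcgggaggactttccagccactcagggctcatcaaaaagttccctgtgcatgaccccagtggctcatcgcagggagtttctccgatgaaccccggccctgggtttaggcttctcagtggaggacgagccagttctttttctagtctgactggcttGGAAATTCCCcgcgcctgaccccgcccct
Nfkbie: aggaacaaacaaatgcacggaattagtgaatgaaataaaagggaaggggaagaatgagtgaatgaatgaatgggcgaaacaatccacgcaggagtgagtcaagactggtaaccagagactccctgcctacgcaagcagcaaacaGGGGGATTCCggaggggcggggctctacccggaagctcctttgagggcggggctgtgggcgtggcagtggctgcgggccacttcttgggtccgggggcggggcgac
These letters describe the windows and say nothing of binding in these cells.

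**Figure D1:**
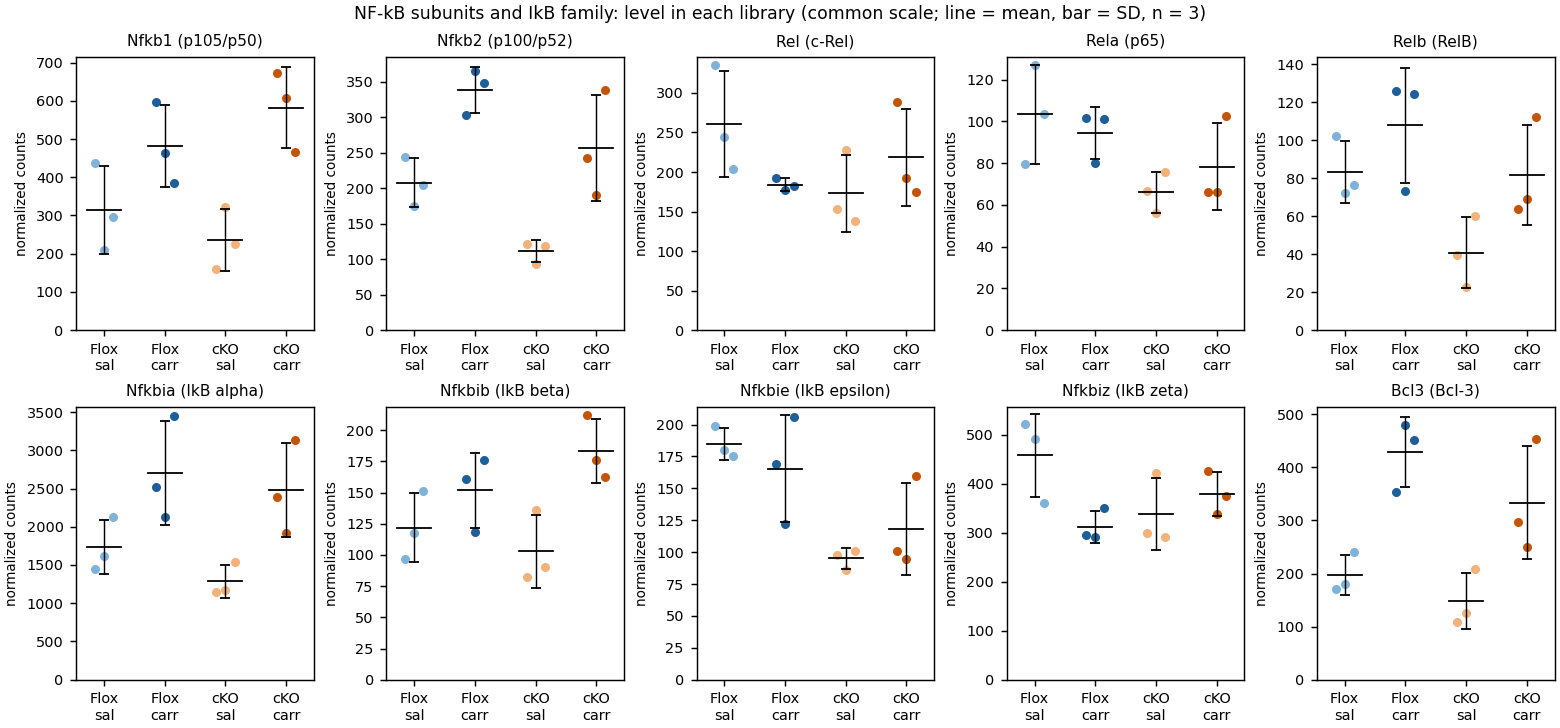
Normalized counts on a common scale (y axis, from 0) of each gene in each library, by group on the x axis; points are libraries, lines are means and bars are SD (n = 3). Nfkb2 in cKO saline (93.3 to 122) lies below every library of the other groups, and Bcl3 in both carrageenan groups (251 to 480.0) lies above all saline libraries.

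Carrageenan against saline asked how the system responds to inflammation in each genotype. Bcl3 rose in both genotypes, and Nfkb1 and Nfkb2 rose in cKO. No member passed in the downward direction in either genotype. Most calls over all genes were higher too, 61.6% of them in Flox and 79.6% in cKO. In Flox 1 of 10 members rose, where 4.42% of the 10240 genes tested did, and in cKO 3 of 10, where 2.1% did (limma adjusted p under 0.05). The median log2 fold change of the members was 0.33 in Flox and 0.89 in cKO, against 0.10 and -0.07 over all genes tested. Values are normalized counts on 1 scale for all libraries, fold changes are on log2 of the value plus 1 with ± SE, and pools are given in the order of their numbers.

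Among the subunits, Nfkb1 encodes p105, the precursor of p50, which pairs with p65 in the commonest dimer. It was at 437, 209 and 297 in Flox saline and 598, 463 and 385 in Flox carrageenan. In cKO it was at 160.4, 322 and 226 in saline and 673, 608 and 466 in carrageenan. The cKO groups did not overlap, while the lowest Flox carrageenan pool lay below the highest Flox saline pool, the shallow pool 1-3. The log2 fold change was 1.34 ± 0.32 in cKO (adjusted p = 0.0359) and 0.66 ± 0.32 in Flox (adjusted p = 0.228). The Flox value was 0.93 without Flox saline 1-3 (adjusted p = 0.0867) and 0.39 without Flox saline 4-7 (adjusted p = 0.477), the ends of its range over the omissions of a library.

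Nfkb2 encodes p100, which acts as an inhibitor until it is cut to p52. Its Flox libraries gave 244, 175 and 205 in saline and 303, 365 and 348 in carrageenan. Its cKO libraries gave 122, 93.3 and 119 in saline and 242, 191 and 338 in carrageenan. Neither pair of groups overlapped, and the gap between groups was wider than the range of the saline pools in cKO. The log2 fold change was 1.17 ± 0.25 in cKO (adjusted p = 0.0230) and 0.71 ± 0.25 in Flox (adjusted p = 0.105).

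Relb, the partner of p52 in the alternative pathway, was at 102, 72.0 and 76.1 in Flox saline and 126, 73.0 and 124 in Flox carrageenan. In cKO it went from 39.7, 22.9 and 59.9 in saline to 63.7, 69.1 and 112 in carrageenan. Flox groups overlapped and cKO groups did not, with the highest cKO saline pool close to the lowest cKO carrageenan pool. The log2 fold change was 0.34 ± 0.37 in Flox (adjusted p = 0.612) and 1.04 ± 0.37 in cKO (adjusted p = 0.225).

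Rela and Rel encode p65 and c-Rel, the subunits that carry activation domains in the canonical pathway. Rela was at 79.5, 127 and 104 in Flox saline and 102, 80.0 and 101 in Flox carrageenan. In cKO it was at 66.5, 56.0 and 75.6 in saline and 66.1, 66.4 and 103 in carrageenan. Its groups overlapped in both genotypes, with log2 fold changes of -0.11 ± 0.28 (95% interval -0.72 to 0.49) and 0.22 ± 0.28 (-0.38 to 0.83). The Flox value of Rela was 0.046 without Flox saline 4-7, so its sign rests on that library. Rel was at 335, 245 and 204 in Flox saline, and its Flox carrageenan pools, at 193, 177 and 182, all lay lower. In cKO Rel was at 153, 228 and 138 in saline and 289, 192 and 175 in carrageenan, with overlap. Its log2 fold change was -0.47 ± 0.28 in Flox (adjusted p = 0.320) and 0.33 ± 0.28 in cKO (adjusted p = 0.877).

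Among the cytoplasmic inhibitors, Nfkbia encodes IkB alpha, the inhibitor that is destroyed and remade fastest. Its Flox libraries were at 1453, 1619 and 2128 in saline and 2519, 2132 and 3451 in carrageenan. Its cKO libraries were at 1148, 1171 and 1539 in saline and 2387, 1920.0 and 3130.2 in carrageenan. Neither pair of groups overlapped, but in Flox the highest saline and the lowest carrageenan pool nearly touched. The log2 fold change was 0.63 ± 0.29 in Flox (adjusted p = 0.204) and 0.93 ± 0.29 in cKO (adjusted p = 0.126).

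Nfkbib encodes IkB beta, which turns over more slowly. It was at 96.5, 118 and 151 in Flox saline and 161, 118 and 176 in Flox carrageenan, against 82.1, 136 and 90.2 in cKO saline and 212, 176 and 163 in cKO carrageenan. Only the cKO groups were apart, at a log2 fold change of 0.86 ± 0.28 (adjusted p = 0.152; 0.32 ± 0.28 in Flox, adjusted p = 0.507). Nfkbie encodes IkB epsilon, known for delayed feedback. It was at 199, 179.9 and 175 in Flox saline and 169, 122 and 206 in Flox carrageenan, against 98.1, 86.0 and 101 in cKO saline and 101, 94.3 and 159.5 in cKO carrageenan. These groups overlapped in both genotypes, at -0.19 ± 0.27 in Flox and 0.27 ± 0.27 in cKO (adjusted p = 0.710 and 0.940), and the Flox value was 0.016 without Flox carrageenan 4-7.

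Bcl3, which binds p50 and p52 homodimers on DNA, was at 170.3, 179.9 and 240.5 in Flox saline and 354, 480.0 and 451 in Flox carrageenan. In cKO it was at 109.6, 126 and 208 in saline and 297, 251 and 453 in carrageenan. Neither pair of groups overlapped. The log2 fold change was 1.12 ± 0.29 in Flox (adjusted p = 0.0324) and 1.18 ± 0.29 in cKO (adjusted p = 0.0464). Nfkbiz encodes IkB zeta, needed for a set of secondary inflammatory genes such as Il6 in mouse macrophages. It was at 522, 492 and 362 in Flox saline and at 295, 292 and 350 in Flox carrageenan, and the carrageenan pools were all lower. In cKO it was at 299.6, 422 and 291 in saline and 427, 338 and 374 in carrageenan, with overlap. Its log2 fold change was -0.54 ± 0.23 in Flox (adjusted p = 0.182) and 0.18 ± 0.23 in cKO (adjusted p = 0.977).

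In all, Nfkb2, Nfkbia and Bcl3 were higher without overlap in Flox carrageenan, as were 13% of genes, and Rel and Nfkbiz were lower without overlap, as were 9.97%. In cKO, Nfkb1, Nfkb2, Relb, Nfkbia, Nfkbib and Bcl3 were higher without overlap, as were 12.6% of genes, and none was lower without overlap, where 17% of genes were. The calls sat near the threshold. Bcl3 in Flox lost its call without Flox saline 1-3, Flox saline 4-7 or any 1 of the 3 Flox carrageenan pools (log2 fold change 1.03 to 1.25, adjusted p = 0.0538 to 0.116). In cKO the 3 calls became 0 without cKO saline 1-4, cKO carrageenan 1-4 or cKO carrageenan 9-12, and 1 without cKO saline 5-8, cKO saline 9-12, cKO carrageenan 5-8, Flox carrageenan 4-7 or Flox carrageenan 8-10. Bcl3 alone lost its call in cKO without Flox saline 4-7 or Flox carrageenan 1-3, and over the 12 omissions the adjusted p of these 3 genes went up to 0.264. With no filter on low values no member passed in either genotype, and on the deposited scale none passed in Flox and Nfkb2 alone in cKO. Of all calls in cKO, 79.6% were higher in carrageenan on the common scale and 69.4% on the deposited scale. DESeq2 on the recovered reads added Nfkbia and Nfkbib in cKO for 5 of 10, where it called 915 of all 10240 genes tested, both directions together.

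**Figure D2:**
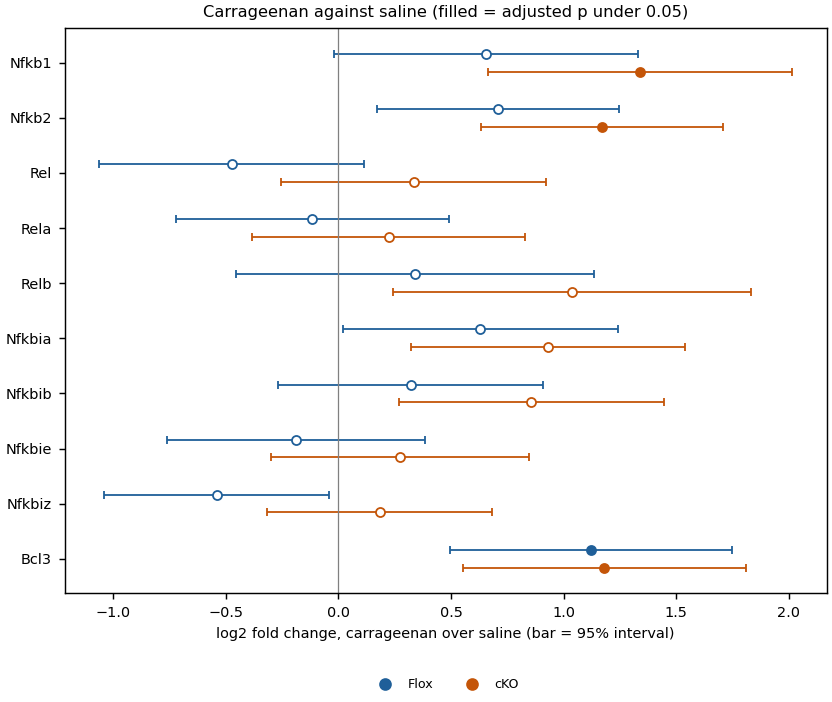
Log2 fold change of carrageenan over saline (x axis) for each gene, Flox in blue and cKO in orange, with bars for the 95% interval and filled points for an adjusted p under 0.05. Bcl3 is filled in both genotypes and Nfkb1 and Nfkb2 in cKO; the intervals of the 2 genotypes overlap for every gene.

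Sorted cells also differed in their makeup between treatments, and in bulk RNA fewer cells of a type cannot be told apart from less RNA per cell. The summed level of 14 resident macrophage markers was 11477 to 16301 in Flox saline and 3336 to 4696 in Flox carrageenan, where 12 of 14 fell. In cKO it was 16638 to 23845 and 4694 to 11510, where 5 of 14 fell. The sum of 10 inflammatory monocyte markers was 1055 to 1982 and 6510.1 to 8542 in Flox (8 of 10 rose), and 847 to 1515 and 2614 to 9511 in cKO (7 of 10 rose). Of 10 neutrophil markers, Ngp and Camp had no read in any group. The others summed to 22.7 to 75.0 in Flox saline, 407 to 738 in Flox carrageenan, 19.3 to 33.3 in cKO saline and 144 to 715 in cKO carrageenan, and 5 rose in Flox and 4 in cKO of 6 tested. Fibroblast markers summed to 39.7 to 594 in Flox saline and 741 to 1264 in Flox carrageenan (2 of 8 rose), against 269 to 675 and 716 to 1077 in cKO (none of 8 passed). Endothelial and mural markers summed to at most 25.4 in Flox saline and 56.3 to 72.3 in Flox carrageenan (2 of 6 rose), and 31.8 to 71.4 in all cKO libraries (none of 6 passed). Dendritic cell, mast cell and keratinocyte markers gave no call in either genotype, no T, B or NK cell marker passed the filter, and of 14 genes of the dissociation response Fosb fell in Flox (-2.48 ± 0.42) and none passed in cKO, with Fosb at -1.57 ± 0.42 (adjusted p = 0.0638). The part of these shifts in the values of the 10 genes was not tested.

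Ratios between members within a library do not depend on how libraries are scaled, and only their change between libraries is read here, since transcript length was not corrected for. The ratio of Nfkb1 to Rel reads was 0.853 to 1.64 in the 6 saline libraries and 2.12 to 3.17 in the 6 carrageenan libraries. That of Nfkb1 to Nfkbiz was 0.424 to 0.837 in saline and 1.10 to 2.03 in carrageenan. Both ratios thus separated the treatments in Flox and cKO alike, although Nfkb1 alone did not in Flox. Nfkb2 over Nfkbie was 0.973 to 1.24 in saline and 1.69 to 3.00 in carrageenan. Relb over Nfkbie was 0.267 to 0.593 and 0.600 to 0.746, a narrow gap. Its lowest carrageenan value came from Flox carrageenan 4-7, with 21 Relb and 35 Nfkbie reads. The ratio of Rela to Nfkbia was lower in carrageenan, at 0.0478 to 0.0785 in saline and 0.0277 to 0.0404 in carrageenan. That of Rela to Bcl3 was 0.363 to 0.707 and 0.167 to 0.288. The level of Rela itself overlapped between treatments in both genotypes. Nfkbie over Bcl3 was 0.485 to 1.17 in saline and 0.254 to 0.477 in carrageenan, also a narrow gap. These are the 7 of 45 member pairs whose ratios did not overlap, picked out after all were computed, and 7.81% of the 21128250 pairs of 6501 genes read in every library separated likewise. The pairs share genes and libraries, and no test was made.

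The balance of inhibitor to subunit mRNA did not separate the groups. The log2 ratio of summed reads of Nfkbia, Nfkbib and Nfkbie over those of the 5 subunits was 1.08 ± 0.48 (mean ± SD, n = 3) in Flox saline and 1.30 ± 0.39 in Flox carrageenan. It was 1.24 ± 0.27 in cKO saline and 1.17 ± 0.31 in cKO carrageenan, and single libraries ran from 0.55 in Flox saline 1-3 to 1.75 in Flox carrageenan 8-10. Nfkbia alone made up 39.9 to 59.8% of the reads of the 10 genes. The Bcl3 to Nfkbiz ratio was 0.326 to 0.665 in Flox saline and 1.20 to 1.64 in Flox carrageenan, and 0.297 to 0.715 and 0.695 to 1.21 in cKO, where the groups just overlapped.

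**Figure D3:**
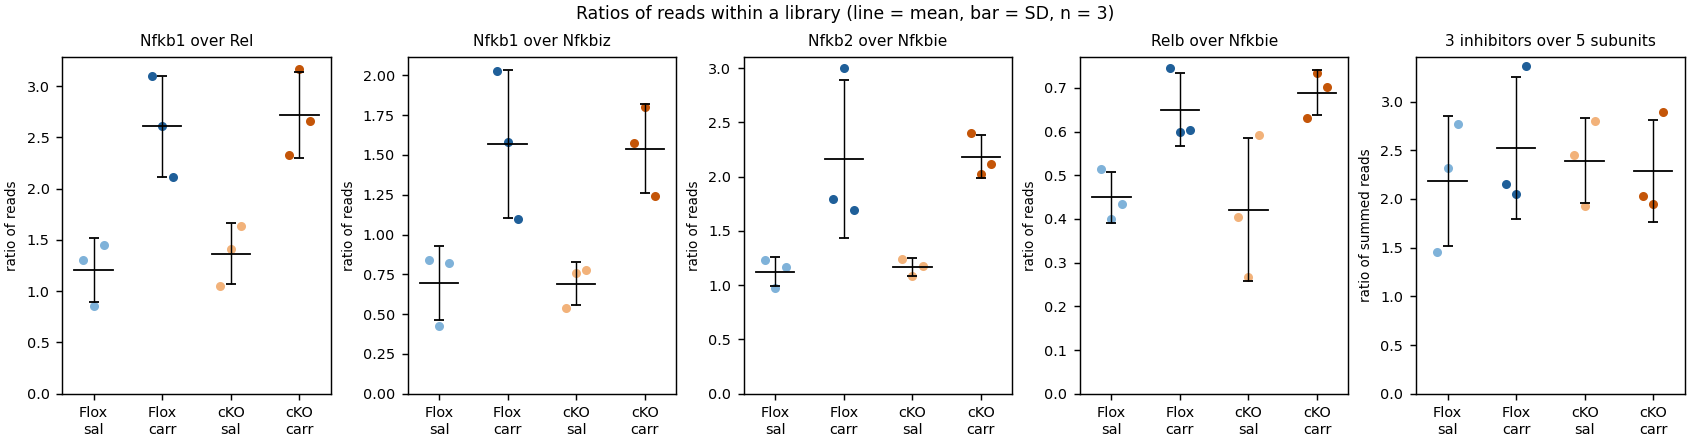
Ratio of reads within a library (y axis, from 0) for 4 pairs of genes and for the 3 cytoplasmic inhibitors over the 5 subunits, by group on the x axis; points are libraries, lines means and bars SD (n = 3). The 4 pairs lie higher in all 6 carrageenan libraries than in the 6 saline libraries, narrowly so for Relb over Nfkbie. The summed ratio overlaps between all groups.

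Comparing cKO with Flox asked whether these genes differed between the genotypes. Targeting of Fabp5, Cre, its Lyz2 allele and depth cannot be told apart in it. In saline all 10 members had a log2 fold change below 0, where 65.1% of the 9371 genes tested were above 0. The tested genes include ones of lower level than the members and were not matched to them in level. On this scale 1 read stood for 5.46 counts in Flox saline 1-3 and 0.27 in cKO saline 5-8. How far this moved the values over all genes was not tested. The median of the members was -0.49 against 0.25 over all genes tested, but none passed. No gene at all did (0% called by limma, smallest adjusted p = 0.683, 508 genes at an unadjusted p under 0.05; edgeR called 0 and DESeq2 23 genes, none of them a member). Nfkbie stood 20th of all genes by p, at 97.3 ± 8.01 in cKO against 185 ± 5.57 in Flox on the deposited scale (mean ± SD, n = 3; log2 fold change -0.92 ± 0.22). Nfkb2 stood 44th, at 114 ± 15.7 against 208 ± 28.9 (-0.86 ± 0.24). Relb was at 41.8 ± 19.0 against 83.2 ± 13.3 (-1.07 ± 0.39). Every cKO pool lay below every Flox pool for these 3 genes, as for 5.23% of genes, and their adjusted p was 0.683. No member was higher without overlap, where 10.4% of genes were. The other log2 values were -0.59 ± 0.29 for Rela, -0.56 ± 0.29 for Rel, -0.42 ± 0.31 for Bcl3, -0.41 ± 0.26 for Nfkbiz, -0.39 ± 0.30 for Nfkbia, -0.37 ± 0.35 for Nfkb1 and -0.22 ± 0.31 for Nfkbib. In the authors' deposited table Nfkbie had a log2 fold change of -0.857 with an SE of 0.240 and an adjusted p of 0.0913, Nfkb2 -0.790 (0.232) and Relb -0.810 (0.625), while 20 genes of 7233 passed 0.05. Over the 6 omissions of a library Nfkbie ran from -0.97 to -0.85, Nfkb2 from -0.97 to -0.74 and Relb from -1.39 (without cKO saline 9-12) to -0.72 (without cKO saline 5-8). Their adjusted p ran from 0.196, 0.265 and 0.297 without the shallow Flox saline 1-3 pool to 0.936 without cKO saline 5-8. Marker sums differed between the saline groups too: resident macrophage markers were at 11477 to 16301 in Flox and 16638 to 23845 in cKO, keratinocyte markers at 261 to 636 and 749 to 1565, and the endothelial and mural ones at no more than 25.4 and at 31.8 to 71.4. The dissociation response summed to 10302 to 11897 in Flox and 11399 to 17870 in cKO, with overlap. Its heat shock genes Hspa1b (2.57 ± 0.55) and Hspa1a (1.74 ± 0.43), near-identical copies whose reads may be split, stood 6th and 27th of all genes by p. No single marker passed, and the part of these sums, of the heat shock genes and of depth in the values above was not tested.

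In carrageenan no member separated by genotype, where 8.87% of genes were higher and 6.19% lower without overlap in cKO. Log2 values were 0.29 ± 0.25 for Nfkb1, 0.22 ± 0.25 for Rel, 0.29 ± 0.25 for Nfkbib and 0.29 ± 0.21 for Nfkbiz, and -0.48 ± 0.29 for Nfkbie, -0.43 ± 0.25 for Nfkb2, -0.39 ± 0.32 for Relb, -0.39 ± 0.27 for Bcl3, -0.28 ± 0.28 for Rela and -0.12 ± 0.28 for Nfkbia. Their median was -0.20 against 0.09 over all 9151 genes tested, of which 0% passed in limma (897 at an unadjusted p under 0.05; 0 by edgeR, and 10 by DESeq2, which gave no adjusted p for 7096). The 95% interval was -1.14 to 0.17 for Nfkbie and -0.27 to 0.84 for Nfkb1. Much larger differences also missed the threshold in this comparison, such as Fabp5 at -2.06 ± 0.53 (adjusted p = 0.497). The sign of Nfkbia turned without Flox carrageenan 8-10 (0.072) or cKO carrageenan 5-8 (0.056), and that of Rel without cKO carrageenan 1-4 (-0.0039). The authors' deposited table passed 5 of 5527 genes in carrageenan and none of the 10. Resident macrophage marker sums were 3336 to 4696 in Flox and 4694 to 11510 in cKO, touching at their ends, and none of 13 tested markers passed. The dissociation response summed to 7558 to 9856 in Flox and 10791 to 17122 in cKO, without overlap. Hspa1b (2.61 ± 0.50) and Hspa1a (1.97 ± 0.40) stood 3rd and 4th of all genes by p, and none of the 14 genes passed (adjusted p = 0.497 for both). Depth was 220463 to 994161 reads in Flox and 508407 to 2627107 in cKO. The part of these in the values of the members was not tested.

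The difference between the carrageenan responses was tested directly. All 10 members had a larger log2 response in cKO than in Flox with all libraries in, with a median difference of 0.47 against -0.15 over all genes, of which 42.0% were above 0. The difference passed for none, and for 0% of 10243 genes in limma (244 at an unadjusted p under 0.05; 0 in edgeR and 0 in DESeq2). It was 0.78 ± 0.38 for Rel (95% interval -0.04 to 1.61, unadjusted p = 0.0606) and 0.70 ± 0.33 for Nfkbiz (-0.0029 to 1.40, unadjusted p = 0.0508), the pair of genes that were lower without overlap in Flox carrageenan. It was 0.67 ± 0.52 for Relb, 0.66 ± 0.44 for Nfkb1, 0.51 ± 0.40 for Nfkbib and 0.44 for both Nfkb2 (± 0.35) and Nfkbie (± 0.38). It was 0.31 ± 0.41 for Rela, 0.28 ± 0.42 for Nfkbia and 0.03 ± 0.42 for Bcl3. The sign of Bcl3 turned in 5 of 12 omissions of a library, down to -0.21 without cKO carrageenan 9-12; the others were without Flox saline 8-10 (-0.14), Flox carrageenan 1-3 (-0.094), cKO saline 1-4 (-0.16) and cKO saline 5-8 (-0.052). The lists of genes by role described below did not all lean the same way. Their median difference was -0.20 for textbook NF-kB target genes and -0.26 for the C/EBP and STAT partners. It was 0.22 for the IKK complex and its activators, 0.04 for the alternative pathway and 0.34 for the brakes. The genes behind the share over all genes were not matched to the members in level. The saline libraries of both genotypes enter the difference of responses and the saline genotype contrast alike, so the signs in both are not separate evidence. Nfkb1 and Nfkb2 passed in cKO and not in Flox, and their responses are therefore not shown to differ.

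**Figure D4:**
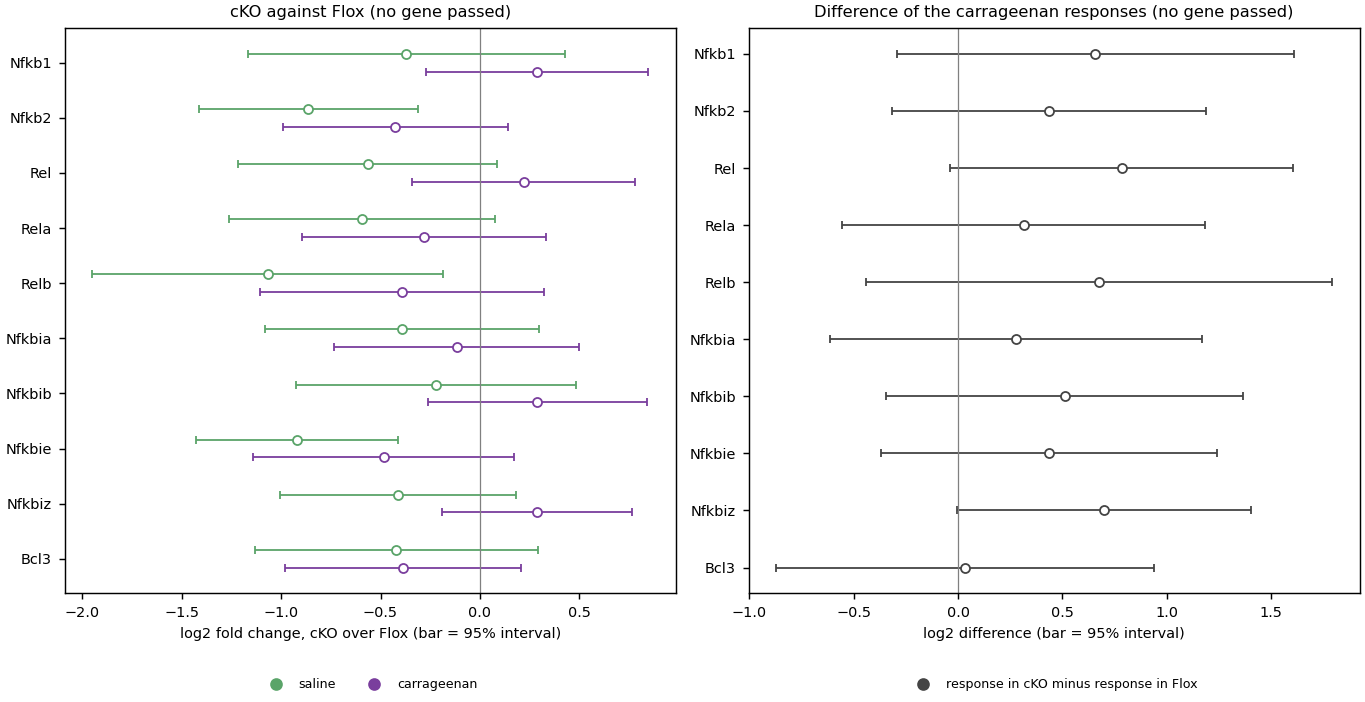
Left, log2 fold change of cKO over Flox (x axis) in saline (green) and carrageenan (purple); right, the log2 difference between the cKO and Flox responses to carrageenan; bars are 95% intervals and open points did not pass. All 10 points lie below 0 in saline and all 10 lie above 0 in the right panel.

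The order of the 4 groups by mean level summarizes each gene. Of 30 pairs of neighbouring groups over the 10 genes, only 3 did not overlap: Flox saline stood above cKO saline for Nfkb2, Bcl3 in cKO carrageenan stood above Flox saline, and Relb in cKO carrageenan stood above cKO saline. Nfkb1 ran from cKO carrageenan (582 ± 106) through Flox carrageenan (482 ± 108) and Flox saline (314 ± 115) to cKO saline (236 ± 81.1), and each neighbour overlapped the next. Nfkb2 ran from Flox carrageenan (339 ± 32.2) through cKO carrageenan (257 ± 74.7) and Flox saline (208 ± 34.6) to cKO saline (111 ± 15.7).

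Genes that act around the NF-kB proteins were described from lists by role, with genes of the smallest p-values in each list named. Of 16 tested genes of the IKK complex and its activators, 2 rose in Flox: Malt1, the paracaspase of the CARD-BCL10-MALT1 complex (1.58 ± 0.31), and Ikbke, the IKK-related kinase IKK epsilon (1.90 ± 0.47). The kinase TAK1 gene Map3k7 was at -1.50 ± 0.45 (adjusted p = 0.0595) and its adaptor Tab3 at -1.63 ± 0.91 (0.303). In cKO only Malt1 rose (1.99 ± 0.31), with Ikbke at 1.78 ± 0.47 (0.0617), Tbk1 at 0.78 ± 0.31 (0.314) and the IKK alpha gene Chuk at 0.46 ± 0.27 (0.690). The IKK beta gene Ikbkb was at 0.11 ± 0.26 in Flox and 0.24 ± 0.26 in cKO. The list's median was 0.13 in Flox and 0.33 in cKO.

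Of 9 tested genes of the alternative pathway, Tnfrsf1b, which encodes TNF receptor 2 (1.75 ± 0.31), and Cd40 (1.19 ± 0.27) rose in Flox, Tnfrsf11a, which encodes RANK, fell (-1.48 ± 0.37), and Ltbr was at 0.93 ± 0.33 (adjusted p = 0.105). In cKO Tnfrsf1b (1.82 ± 0.31), Cd40 (1.45 ± 0.27) and the ubiquitin ligase gene Birc3 (1.09 ± 0.23) rose and Tnfrsf11a was at -0.98 ± 0.37 (0.260). The kinase gene Map3k14 did not pass (-0.11 ± 0.43 and 0.23 ± 0.43). Medians of the list were 1.19 and 0.71.

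Of 14 deubiquitinases and other brakes, 5 rose in Flox and 5 in cKO. The lead genes in Flox were Trim30a (2.06 ± 0.36), the A20-binding protein gene Tnip3 (1.42 ± 0.28), the RNase Regnase-1 gene Zc3h12a (1.26 ± 0.31) and Tax1bp1 (0.95 ± 0.24), with Tnip1 the other. In cKO they were Tnip3 (2.24 ± 0.28), Trim30a (2.05 ± 0.36), Tnip1 (1.53 ± 0.34) and Tnfaip3, which encodes A20 (1.37 ± 0.31), with N4bp1 the other. In Flox Tnfaip3 was at 0.15 ± 0.31 (adjusted p = 0.802). Its level was 350.0 ± 60.4 in Flox saline, 387 ± 46.2 in Flox carrageenan, 230.2 ± 78.7 in cKO saline and 604 ± 216 in cKO carrageenan (mean ± SD), and the difference of its responses was 1.19 ± 0.44 (unadjusted p = 0.0158, adjusted p = 0.967), looked at after its values were seen. The list's median was 0.72 in Flox and 0.68 in cKO. Genes of the other lists differed in both directions by the same limma fit. The textbook target Csf1 was at -2.62 ± 0.90 (unadjusted p = 0.0108) and Ltbr at -1.05 ± 0.48 (unadjusted p = 0.0444). Map3k7 was at 1.62 ± 0.62 (unadjusted p = 0.0204), and the adjusted p was 0.967 for each.

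Of 24 tested textbook target genes, 12 rose in Flox and 11 in cKO, none fell, and the medians were 1.42 and 1.41. The chemokine genes Ccl5 (5.21 ± 0.41 in Flox and 4.60 ± 0.41 in cKO) and Ccl4 (4.28 ± 0.47 and 3.68 ± 0.47) and the acute-phase gene Saa3 (8.19 ± 0.74 and 6.82 ± 0.74) led in both, with Il6 in Flox (2.85 ± 0.32) and the mitochondrial superoxide dismutase gene Sod2 in cKO (2.31 ± 0.30). Among partner factors, Cebpb (1.73 ± 0.37) and Irf1 (1.55 ± 0.41) rose in Flox, with Stat3 at 0.74 ± 0.23 (adjusted p = 0.0672). In cKO Stat3 rose (0.95 ± 0.23), with Cebpb at 1.27 ± 0.37 (0.104) and Cebpd at 0.64 ± 0.40 (0.715). In the genotype comparisons and in the difference of responses, no gene of any of these lists passed. Different counts in the 2 genotypes are not shown to differ.

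**Figure D5:**
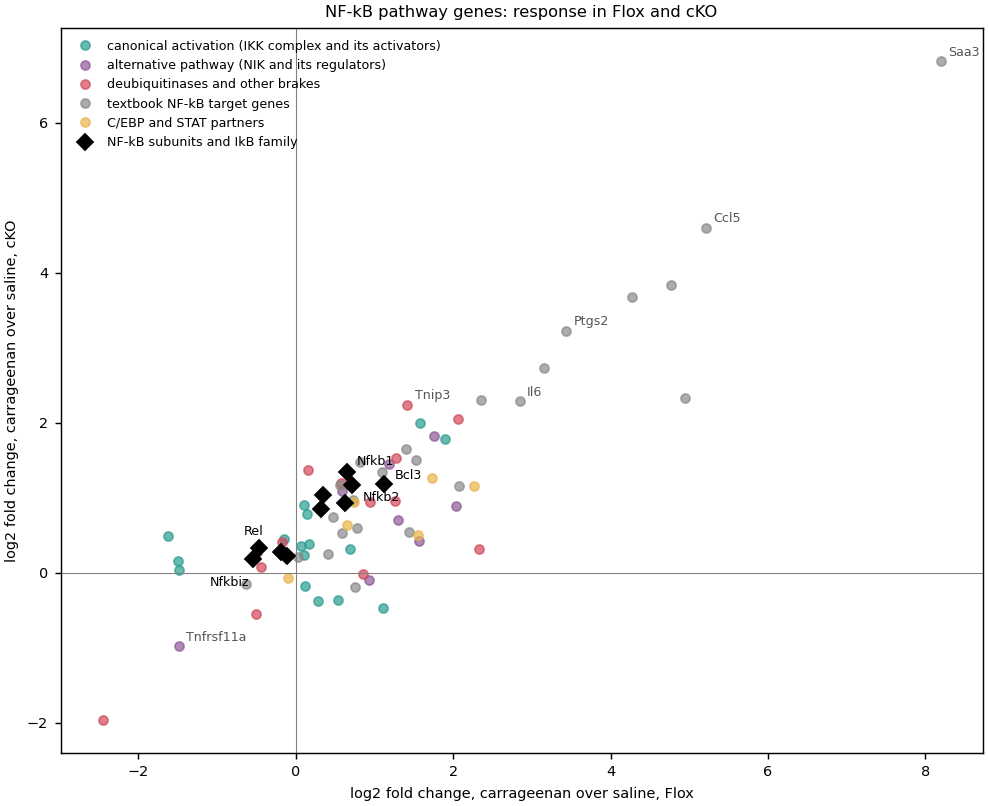
Log2 fold change of carrageenan over saline in Flox (x axis) and cKO (y axis) for the 10 members (black diamonds) and the tested genes of 5 pathway lists (coloured points). Saa3 lies at 8.19 and 6.82, while the members lie between -0.54 and 1.12 in Flox and 0.18 and 1.34 in cKO.

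Across the 12 libraries, the non-members with the pattern most like each gene were found by Pearson r among 5700 genes with a mean of at least 20, as a description over libraries that share groups and depth. For Nfkb2 they included Tnip1 (0.970) and Malt1 (0.958). For Bcl3 they were Plaur, the urokinase receptor gene (0.969), Il1b (0.965) and Slfn2 (0.963). For Nfkb1 they were Arih1 (0.938), Ell2 (0.931) and Flrt3 (0.930), for Relb Nop56 (0.947), Slc7a5 (0.938) and Traf1 (0.923), and for Nfkbia Slfn2 (0.942), Eif6 (0.942) and Tle3 (0.933). For Rela they were Cd74 (0.961), Snu13 (0.921) and Cox7b (0.905), and for Rel Tatdn2 (0.880), Tsc22d2 (0.866) and Atxn2l (0.820). The highest was Hmga1 for Nfkbib (0.960), Selplg for Nfkbie (0.908) and Synj1 for Nfkbiz (0.872).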

How the data were processed

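Sorted cells of 4 groups (3 pools each) were read with the Lexogen LUTHOR 3' mRNA kit with molecular identifiers after PureLink Micro RNA extraction, per the labels' protocols. cutadapt, STAR and GRCm38 are named in the submitters' processing notes, without versions; no source used here gives the counter, its annotation or its use of strand. The deposited signal is in normalized counts, in which reads were divided by 1 size factor per library, and saline and carrageenan were normalized separately. The authors' other tables give, per the file headers, log2 fold changes between the genotypes (cKO relative to Flox), a standard error and a test score per gene, and a p-value with its adjusted p-value. Whole reads were recovered from the deposited normalized counts (100% of low values whole, tolerance 0.001).

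Genes that reached 5 normalized counts in 3 or more libraries were fitted with limma 3.58.1 (trend, R 4.3.3) on log2 of the value plus 1, which understates changes of low genes, with two-sided p-values adjusted by Benjamini-Hochberg over all genes tested and a threshold of 0.05. Genotypes were compared on the deposited scale within a treatment. Carrageenan was compared with saline on a scale common to the 12 libraries (medians of ratios, 6501 genes), and the difference of responses used the deposited scales. Normalized counts had been planned for, so limma stayed the main test. edgeR 4.0.16 (TMM, quasi-likelihood) called 615 genes in Flox and 733 in cKO on the recovered reads for carrageenan against saline, and DESeq2 1.42.0 called 886 and 915, against 735 and 270 in limma. Other alternatives were a pseudocount of 5, no filter, the other scale, a replicate block and leaving out each library. Symbols were matched for 55141 of 55401 gene IDs, and 121 entries that are not genes (0.170 to 2.23% of reads) were left out. Precision is limited by depth (111925 to 2987015 reads) and by 3 pools a group, and p-values measure the spread between pools. Pools of a group were compared for repeats, and none of the pairs were alike within counting error (chi-square over its degrees of freedom from 3.00 to 18.7). Saline and carrageenan pools share mouse numbers. Same-numbered pools deviated together in cKO (r = 0.200, 0.334 and 0.432 over 10240 genes) and not in Flox (0.00905, -0.0182 and 0.109). In cKO, saline 5-8 with carrageenan 1-4, pools of unlike numbers, gave 0.235, and the other unlike pairs ran from -0.394 to 0.0299. The main fits did not pair the pools, and pairing entered only in the replicate block.

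The members, the lists, the rule for named genes (all members, the 4 smallest p of each pathway list in the carrageenan comparisons, every list gene called elsewhere, and the 3 genes most like each member) and the tests were chosen with earlier results of these data known. Some genes that this rule names are not reported here. The fit was run on simulated data, with limits set on the fold size and on false calls. A limit on the share of changed genes found was missed and then dropped. Changes as small as those of the members were not simulated, so power for them is not known.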

Additional observations from a re-analysis of the deposited data

How the results depend on the processing

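Of the 10 members, 1 passed in Flox and 3 in cKO for carrageenan against saline. In Flox the count was 1 with edgeR, DESeq2, a pseudocount of 5 and the replicate block, 0 with no filter and 0 on the deposited scale. Leaving out a library gave 0 to 1 in Flox and 0 to 3 in cKO. In cKO it was 3 with edgeR, a pseudocount of 5 and the replicate block, 5 with DESeq2, 0 with no filter and 1 on the deposited scale. No filter tests more genes; the cause of the other changes was not tested. With pools paired by the replicate block, the count for the difference of responses was 0, and the block changed no call of a member. The counts for cKO against Flox in saline and in carrageenan and for the difference of responses were 0 under every alternative run, and omissions gave 0 to 0. The other scale moved the median of all genes by -0.0850 in Flox and -0.108 in cKO. Over all genes, carrageenan against saline gave 418 calls in Flox and 139 in cKO with no filter, and 733 and 915 in cKO with edgeR and DESeq2, against 735 in Flox and 270 in cKO. The log2 ratio of inhibitors to subunits, without Nfkbia, was -1.65 in Flox saline, -1.95 in Flox carrageenan, -1.66 in cKO saline and -2.01 in cKO carrageenan. With Nfkbiz and Bcl3 added it was 1.65 in cKO saline and 1.50 in cKO carrageenan. Over omissions it ran from 0.88 to 1.34 in Flox saline, 1.07 to 1.43 in Flox carrageenan, 1.12 to 1.39 in cKO saline and 0.99 to 1.27 in cKO carrageenan. Genes of the pathway lists were not fitted again without single libraries. Depth limits the Flox saline values most, with 14 reads of Rela in its shallowest pool.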
